A study of Mus musculus with 9 samples.

Results

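The untreated group of a mouse bile duct organoid series was described by the absolute level of its transcripts, in 3 libraries of the 9 in the series. The members are the libraries labelled as untreated and tdTom negative, 1 each from organoid passages 5, 6 and 10. Bile duct organoids are hollow epithelial cysts grown in culture from duct cells of the liver. A single male mouse of mixed genetic background gave rise to all of the cultures, and its genotype was Axin2CreERT2+/-; R26-LSL-tdTom+/-. Axin2 is a target of Wnt signalling. The CreERT2 recombinase driven by it removes a stop sequence before the red fluorescent protein tdTomato once 4-hydroxytamoxifen (4-OHT) is present. After 2 to 4 days of expansion, the cultures spent 11 days in a medium that promotes hepatocyte-like differentiation. Dexamethasone at 3 µM and 4-OHT at 500 nM were added for the last 24 h, and the untreated group had no Rspo1. Organoids were dissociated and sorted, and the cells described here were those without tdTomato.

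All 3 libraries come from 1 animal and each passage is a single library, so the SD given below is the spread over 3 passages, and no test was run. That spread holds passage, culture, sort and library preparation together, and these cannot be told apart. Levels are the authors' FPKM (read counts scaled by transcript length and by library), and values in groups of 3 always follow the order passage 5, passage 6, passage 10. A gene counts as on when it had at least 1 FPKM in all 3 libraries, off when it had under 0.1 FPKM in all 3, and low or variable otherwise. In RNA from a sorted population, fewer cells of a type and less RNA per cell cannot be told apart.

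The bile ducts are lined by cholangiocytes, which carry simple epithelial keratins, adjust bile by moving chloride, bicarbonate and water, and bear a primary cilium. Hepatocytes, the other epithelial cell of the liver, make most plasma proteins, detoxify ammonia through the urea cycle and metabolise drugs with cytochrome P450 enzymes. Both arise from a common embryonic progenitor, and they share part of their transcription factor set. Duct cells in culture take on features of a regenerating duct, among them Sox9, Spp1 and the surface protein Prom1.

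The table held 32137 genes, and total counts per library were 30879431, 32769578 and 32519783. Of these genes, 12421 (38.6%) were on, 8773 were low or variable and 10943 (34.1%) were off, including 4528 without a read in any of the 3 libraries. Among the 17563 protein-coding genes, 10688 (60.9%) were on. The Y-linked genes Ddx3y, Eif2s3y, Kdm5d and Uty were on, with Ddx3y at 6.14, 3.94 and 9.11 FPKM, and Xist, the RNA of the inactive X chromosome, had 3, 0 and 4 counts. These values match the labelled sex.

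The passage 6 library stood apart in noncoding RNA, and this bears on every share given below. Gm42418, known in mouse data for overlapping ribosomal RNA sequence, had 949, 9894 and 2618 FPKM, and AY036118, known for the same, had 1590.1, 16541 and 4326. CT010467.1, annotated as ribosomal RNA, had 1263, 13203 and 3526 FPKM. All 3 were highest at passage 6 and lowest at passage 5. Their positions overlap on chromosome 17, so they do not count as 3 separate observations. Lars2, the gene of a mitochondrial leucyl-tRNA synthetase, had 66, 1114 and 150.0 FPKM in the same pattern and is counted here with these ribosomal-RNA-related genes. Whether its reads come from the synthetase message was not tested. Together with Mir6236, Gm26917, Gm15564 and the other genes of ribosomal RNA biotype, this set of 92 genes held 1.21, 12 and 3.54% of summed FPKM and 0.641, 6.21 and 1.79% of counts. In the other direction, Neat1, a long noncoding RNA that builds nuclear paraspeckles, had 21, 1.31 and 20.4 FPKM, and Firre, a long noncoding RNA of the nucleus, had 12.7, 1.11 and 31.1. Both were lowest at passage 6. The splicing-related genes Srsf5 (52, 16 and 113) and Ccnl2 (38.2, 10.5 and 61.8) were also lowest there. Malat1, another nuclear RNA, was level at 94.5, 98.9 and 93.4 FPKM. The plot sets these and other transcripts, picked with their levels known, beside 5 epithelial genes.

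**Figure D1:**
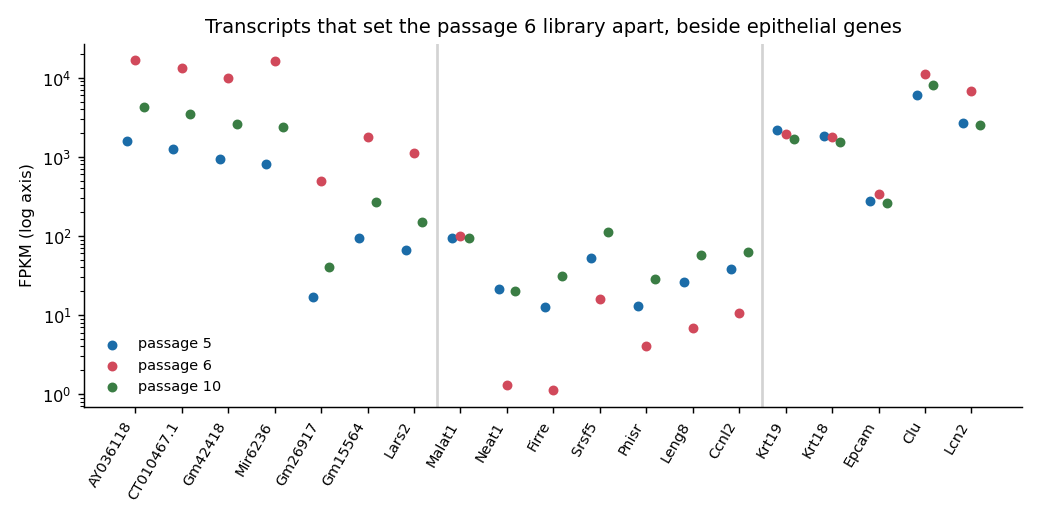
FPKM on a log axis of 19 transcripts in the 3 untreated libraries, 1 point per passage, with ribosomal-RNA-related genes on the left, nuclear RNAs and splicing-related genes in the middle and epithelial genes on the right. The transcripts were picked with their levels known, several for a large ratio between passages, so their pattern describes this choice only. The passage 6 points are highest for all 7 transcripts on the left and lowest for 6 of the 7 in the middle, while the 3 points of Krt19 and Krt18 lie close together. On the left, AY036118, CT010467.1 and Gm42418 overlap in position and are not separate.

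Summed FPKM was 398480, 497466 and 382953, so a scale that divides by this sum (TPM) lowers passage 6 against the others. On the log2 scale TPM lay above FPKM by 1.33, 1.01 and 1.38, and rescaling to the total count moved values by 0.09, -0.11 and 0.12. A gene is therefore said to be highest at a passage only where that held on all 3 scales. Of the genes on, 24.6% met this for passage 5, 9.15% for passage 6 and 32.4% for passage 10. By FPKM alone these shares were 27.2, 40.4 and 32.4%, so the rule removed mainly genes highest at passage 6. Between passages, log2 FPKM of the genes on correlated with Pearson r of 0.968 (5 and 6), 0.967 (5 and 10) and 0.947 (6 and 10). These correlations run across genes of cultures from 1 animal and are given as a description.

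Promoter windows are shown for 4 genes, chosen with their levels known, to set high duct genes beside a low hepatocyte gene: Krt7 and Epcam, which define the duct epithelium, Lcn2, the secreted product among the most abundant messages, and Alb, the hepatocyte product. Each window runs 5′ to 3′ on the gene's own strand, from 250 bases before the start site to 50 after, from RefSeq on GRCm38.p6. Of the 7 marker genes and the 15 most abundant protein-coding genes, 21 different genes in all, 10 were matched in the promoter table. Capitals mark every match, on either strand, to either of 2 motifs. The letters TATAAA stand for the core promoter box of that name, and GGGCGG is the GC box. No matches overlapped in the 4 windows.
Krt7, chr15:101412153-101412452, plus strand: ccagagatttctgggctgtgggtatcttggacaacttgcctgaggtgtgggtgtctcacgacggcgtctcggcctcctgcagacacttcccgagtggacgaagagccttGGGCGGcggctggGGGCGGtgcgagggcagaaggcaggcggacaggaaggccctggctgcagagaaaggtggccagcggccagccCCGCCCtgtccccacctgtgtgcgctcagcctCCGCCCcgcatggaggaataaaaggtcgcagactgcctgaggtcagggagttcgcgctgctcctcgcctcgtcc
Epcam, chr17:87635729-87636028, plus strand: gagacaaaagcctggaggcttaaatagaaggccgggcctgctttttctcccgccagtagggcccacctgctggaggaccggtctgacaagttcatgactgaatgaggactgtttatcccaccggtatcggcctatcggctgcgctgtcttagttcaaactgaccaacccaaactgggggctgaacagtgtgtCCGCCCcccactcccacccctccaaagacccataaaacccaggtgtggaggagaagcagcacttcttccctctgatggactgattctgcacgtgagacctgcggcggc
Lcn2, chr2:32387690-32387989, minus strand: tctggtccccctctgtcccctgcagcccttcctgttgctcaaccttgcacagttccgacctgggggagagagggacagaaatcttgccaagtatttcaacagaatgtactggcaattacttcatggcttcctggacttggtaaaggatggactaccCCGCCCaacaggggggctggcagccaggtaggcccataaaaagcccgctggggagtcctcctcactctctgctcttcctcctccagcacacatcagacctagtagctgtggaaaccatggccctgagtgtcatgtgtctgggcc
Alb, chr5:90460620-90460919, plus strand: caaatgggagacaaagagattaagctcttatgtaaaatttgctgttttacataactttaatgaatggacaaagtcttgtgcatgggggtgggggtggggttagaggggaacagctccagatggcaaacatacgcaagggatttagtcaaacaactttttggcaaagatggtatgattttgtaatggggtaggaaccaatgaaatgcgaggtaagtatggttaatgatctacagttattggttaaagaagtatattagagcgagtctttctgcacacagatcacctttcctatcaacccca

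The Krt7 window held 4 GC boxes, with first bases at -141, -128, -56 and -24 from the start site. Epcam held 1 at -58 and Lcn2 held 1 at -94. The Alb window held neither motif. The other 6 genes found did not divide by level in this way. Hnf4a and Eef1a1 held GC boxes, Spp1 and Mmp7 held TATA boxes only, and Krt18 and S100a6, both among the most abundant, held neither motif. Of Spp1, Mmp7 and Hnf4a, which have 2 start sites each in the table, 1 window held the matches. Of 32851 promoter windows in the table, 35.7% held a GC box and 13.6% a TATA box. Among the 10715 windows of protein-coding genes that were on, the GC box share was 64.2%, and among the 3108 windows of genes that were off it was 34%. The TATA box shares were 6.69% and 15%. A letter match describes the sequence only and does not show a bound site.

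The 7 defining markers were on in every library, with Krt19 the highest and Alb the lowest. Krt19 (ENSMUSG00000020911, chr11:100140810-100148665, minus strand), the keratin by which ducts are usually recognised, had 2164, 1949 and 1690.3 FPKM and a mean of 1934 ± 237 (SD, n = 3). Its 3 libraries were close, with passage 5 highest. Krt7 (ENSMUSG00000023039, chr15:101411043-101430313, plus strand), its partner duct keratin, had 849, 512 and 566 FPKM, again highest at passage 5. Spp1 (ENSMUSG00000029304, chr5:104435118-104441050, plus strand), the secreted phosphoprotein osteopontin, had 473, 936 and 548 FPKM and was highest at passage 6. The ranges of Krt7 and Spp1 overlapped, so these 2 neighbours in the order did not differ beyond their spread. Epcam (ENSMUSG00000045394, chr17:87635979-87651129, plus strand), an epithelial adhesion protein, had 274, 337 and 263 FPKM. Hnf4a (ENSMUSG00000017950, chr2:163506808-163572910, plus strand), the nuclear receptor that drives hepatocyte genes, had 51.4, 63.3 and 43.2 FPKM. The highest library of Epcam and of Hnf4a changed with the scale. Sox9 (ENSMUSG00000000567, chr11:112782224-112787760, plus strand), the duct transcription factor, had 7.99, 14.7 and 17.6 FPKM, lowest at passage 5. Alb (ENSMUSG00000029368, chr5:90460897-90476602, plus strand), serum albumin, had 4.39, 7.38 and 6.99 FPKM from 294, 457 and 503 counts. All 3 Alb values lay below the lowest Sox9 value, and Alb was the lowest of the 7 markers in mean and in every library.

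**Figure D2:**
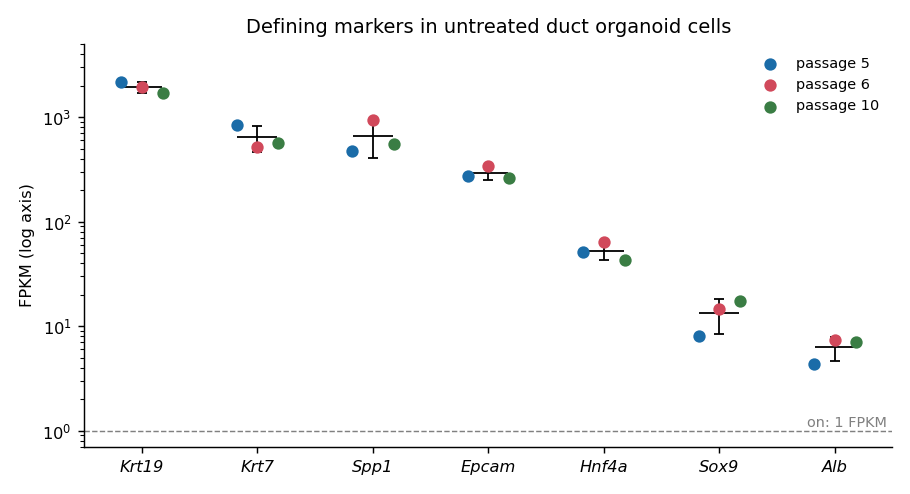
FPKM on a log axis of the 7 defining markers, 1 point per passage, with the mean and SD of the 3 libraries in black and the level for on (1 FPKM) dashed. Krt19 lies at 1690.3 to 2164 FPKM and Alb at 4.39 to 7.38 FPKM, and all points are above the dashed line.

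Most duct genes were on: 41 of 46 were on, 3 were low or variable and 2 were off. Their median level was 53.6 FPKM, and 19 had a mean of at least 100 FPKM. Over all genes in the table, 38.6% were on and 34.1% off, and of protein-coding genes 60.9% were on. All 4 simple epithelial keratins were on, and Krt8 (1621, 1659.9 and 1344) and Krt18 (1821, 1756 and 1544), which form filaments together, were of the same order as Krt19. All 10 surface and adhesion genes were on, and Cd24a, a small surface glycoprotein, had the highest mean at 763 FPKM. Prom1, a membrane protein of progenitor cells, had 486, 689 and 432 FPKM, and Cdh1, the epithelial cadherin, had 347, 428 and 316. Prom1 was highest at passage 6. The tight junction claudins Cldn3, Cldn4 and Cldn7 had means of 329, 126 and 192 FPKM.

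The secreted and progenitor products held the largest values of the list. Clu (ENSMUSG00000022037, chr14:65968483-65981547, plus strand), the extracellular chaperone clusterin, had 6029.8, 11309 and 7997 FPKM and was the most abundant gene in the table by mean. Lcn2, the iron-siderophore-binding lipocalin, had 2652, 6845 and 2506 FPKM, and Mmp7, a matrix metalloproteinase of injured and secretory epithelia, had 2428, 3426 and 2033. All 3 were highest at passage 6, and Lcn2 there was well above its other 2 libraries, which were close together. Tnfrsf12a, the receptor for the cytokine TWEAK, had 226, 140.0 and 217 FPKM, highest at passage 5.

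All 11 duct transcription factors were on, at lower levels. Elf3, an epithelial ETS factor, was the highest at 229, 229 and 125 FPKM, and its relative Ehf had 87.8, 105 and 71.2. Onecut1 and Onecut2, factors of the early liver and ducts, had means of 6.21 and 39.8 FPKM. Hes1, the Notch effector, had a mean of 31.5 FPKM, Foxa2 one of 33.4 and Tead2 the lowest at 3.99. By mean, Sox9 ranked above only Onecut1 and Tead2 in this group.

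Duct transport was the only role in the list with genes off. Cftr, the chloride channel of the cholangiocyte, had 0.649, 0.748 and 0.671 FPKM from 137, 146 and 152 counts, under the level for on in all 3 libraries. On the TPM scale all 3 Cftr values were above 1, so its state depends on the scale. Sctr, the secretin receptor, had 1, 0 and 1 counts, and Gpbar1, the bile acid receptor, had no count. For Gpbar1 a limit of 3 counts corresponds to 0.0848, 0.0917 and 0.0789 FPKM. Slc26a6, an anion exchanger, had 0.48, 0.316 and 0.668 FPKM, and the glucose carrier Slc5a1 had 0.459, 1.62 and 1.11, which crossed the threshold at passages 6 and 10 only. The other 6 were on. They included Slc4a2, the chloride-bicarbonate exchanger (38.5, 42.2 and 38.4), Ano1, a calcium-activated chloride channel (67.9, 52.2 and 58), and Slc10a2, which takes bile acids back up (13.9, 16 and 13.3). The water channel Aqp5 had 773, 352 and 479.6 FPKM, and Aqp1, the aquaporin usually named for ducts, had 6.24, 10.4 and 33.6. Aqp5 was highest at passage 5 and Aqp1 at passage 10, and their ranges were far apart. The 5 cilium genes were all on, from Pkd1 at 3.48 to Bicc1 at 71.4 FPKM (means), with Pkhd1, fibrocystin, at 6.8, 9.71 and 11.9.

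**Figure D3:**
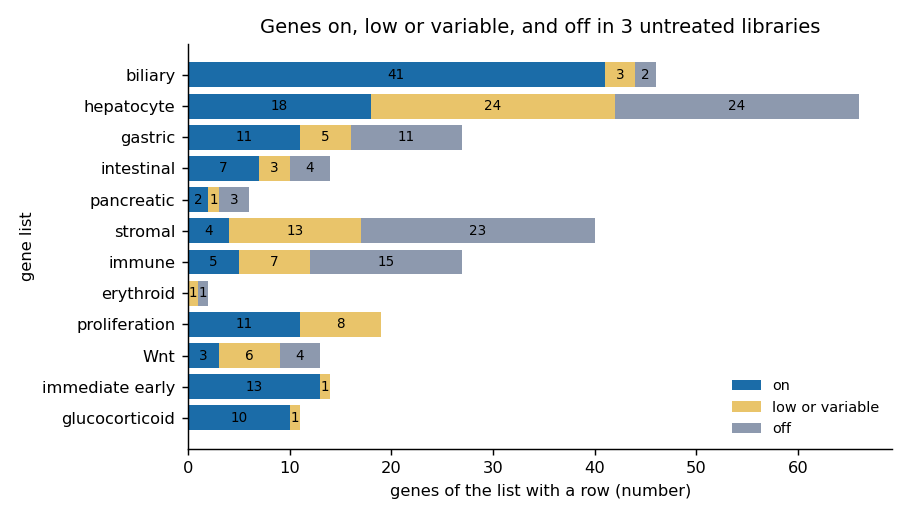
Number of genes on, low or variable, and off in each of the 12 gene lists, counting genes with a row in the table. The biliary bar is mostly on (41 of 46), the hepatocyte bar holds 18 on and 24 off, and the stromal bar holds 4 on and 23 off.

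Hepatocyte genes were split by role. Of the 66 with a row, 18 were on, 24 low or variable and 24 off, and the median level was 0.137 FPKM. The share on was 27.3%, beside 38.6% of all genes and 60.9% of protein-coding genes. The transcription factors were the best represented: 5 of 10 were on. Besides Hnf4a they included Cebpa (19.3, 31.9 and 12.7), the bile acid receptor gene Nr1h4 (11, 12.6 and 11.2) and Nr1i3 (6.38, 7.04 and 6.5), which encodes the xenobiotic receptor CAR. Cebpa was highest at passage 6. Nr1i2, the gene of the related receptor PXR, fell just short with 0.964, 1.2 and 1.35 FPKM, and Prox1 had 0.741, 1.22 and 0.793. Nr5a2, a regulator of bile acid synthesis, was off with 1, 0 and 0 counts.

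Plasma protein genes ranged from abundant to off. Trf, transferrin, had 324, 1008 and 601 FPKM, Ttr, the thyroxine carrier transthyretin, had 311, 351 and 124, and Ambp, the precursor of a protease inhibitor, had 90.0, 139 and 68.8. Trf and Ambp were highest at passage 6, and Ttr was lowest at passage 10. Alb, Rbp4 (4.18, 10.3 and 4.64), Hp (1.2, 8.62 and 3.32) and Apoh (2.42, 1.96 and 2.16) were on at means under 10 FPKM. Of the fibrinogen chains, Fga had 0.106, 1.54 and 2.02 FPKM, Fgb 0.00797, 0.112 and 1.2 and Fgg 0, 0.0755 and 0.292, each highest at passage 10. Apob, the protein of very low density lipoprotein, was off at 0.0588, 0.099 and 0.0122 FPKM, and of the near-identical antitrypsin genes Serpina1a had 0, 2 and 0 counts and Serpina1b none. Afp, the fetal albumin relative, had 0.133, 0.127 and 0.11 FPKM, just above the level for off.

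The urea cycle was on in its last steps and off in its first. Cps1, which fixes ammonia, had 0, 0 and 1 counts and Otc, the next enzyme, none, where 3 counts would be 0.0304, 0.0329 and 0.0283 FPKM. Ass1 (61.8, 40.7 and 44.7), Asl (15.8, 15.7 and 18.3) and Arg1 (1.54, 2.34 and 2.36), the enzymes that follow, were on. Glul, glutamine synthetase, had 146, 191 and 76.8 FPKM and was highest at passage 6. Tat, Hpd, Hal and Tdo2, enzymes of tyrosine, histidine and tryptophan breakdown, were off, with at most 0.0741 FPKM in any library, in Hal. Of 6 glucose and lipid genes only Pklr, liver pyruvate kinase, was on (22.3, 24.4 and 28.1), while G6pc and Fbp1 of glucose synthesis were off. Among 6 cytochrome P450 genes only Cyp2f2 was on (12.1, 19.7 and 18.3), and Cyp3a11, Cyp2e1 and Cyp2c29 were off. None of the 8 transporters and surface receptors was on. Abcb11, the bile salt export pump, had 3, 0 and 5 counts, Slc10a1, the bile acid uptake carrier, had 0.0347, 0.0939 and 0.162 FPKM and Asgr1, a part of the asialoglycoprotein receptor, had 1, 0 and 0 counts.

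**Figure D4:**
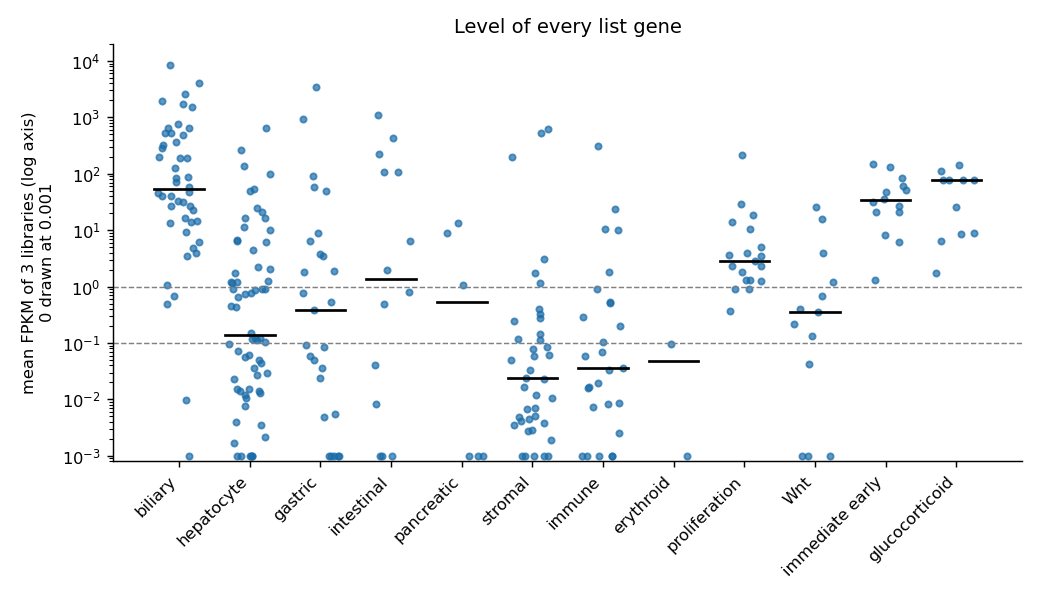
Mean FPKM over the 3 untreated libraries of every list gene with a row, on a log axis, 1 point per gene in 12 lists, with the list's median as a black bar and 1 and 0.1 FPKM dashed. The biliary median lies at 53.6 FPKM and the stromal median at 0.0235 FPKM, and each of the hepatocyte, gastric, stromal and immune lists has single genes above 100 FPKM.

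Genes of the gastric list were on in part, and 2 of them, Dmbt1 and Tff2, were among the most abundant messages. Whether its members are particular to the stomach was not tested. Of 27 with a row, 11 were on, 5 low or variable and 11 off. The share on, 40.7%, was near the 38.6% of all genes and below the 60.9% of protein-coding genes. Dmbt1, a secreted scavenger receptor of mucosal surfaces, had 1697, 5003 and 3875 FPKM, lowest at passage 5. Tff2, the trefoil peptide of gastric glands, had 629.9, 1358 and 813 FPKM and was highest at passage 6, and Tff1, that of the gastric surface, had 86.2, 54.6 and 34.3. Ctse, the protease cathepsin E, had 128, 88.4 and 61.3 FPKM and Psca, a small surface antigen, had 111, 15.7 and 24.3. Tff1, Ctse and Psca were highest at passage 5, and Psca at passage 5 was far above its other 2 libraries. Agr2, a protein folding factor of mucous cells, had 4.55, 6.01 and 16.2 FPKM, and the pepsinogen gene Pgc had 1.58, 2.53 and 6.15. The gel-forming mucins Muc5ac and Muc6 were off at means of 0.0497 and 0.036 FPKM. Sox2, the foregut factor, had 1, 0 and 0 counts. Gif, Pga5, Gast, Gkn3 and Atp4b, products of chief, endocrine, neck and parietal cells, had no count in any library, while Atp4a, the other subunit of the proton pump, had 2.41, 1.44 and 1.86 FPKM.

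Intestinal and pancreatic lists gave a similar mixture of on and off. Of 14 intestinal genes 7 (50%) were on, and of the pancreatic genes with a row 33.3%. Beside these stand 38.6% of all genes and 60.9% of protein-coding genes. Tff3, the intestinal trefoil peptide, had 1027, 1377 and 968 FPKM, Spink4, a goblet cell protease inhibitor, had 169, 586 and 554, and Fcgbp, a mucus protein, had 206, 273 and 181. Olfm4, an intestinal stem cell product, had 40.6, 201 and 84.8 FPKM, highest at passage 6. The brush border protein gene Vil1 had 108, 118 and 99.2 FPKM and the factor Cdx2 had 1.11, 2.35 and 2.38, while Cdx1, Sis and Lyz1 had no count and Muc2 had 0.27, 0.0786 and 1.11 FPKM. Of 6 pancreatic genes with a row, Pdx1, a factor of the pancreas and duodenum, was on at 10.4, 15.9 and 14.3 FPKM and Cela1, an elastase, at 7.73, 8.01 and 10.8. Ptf1a, Nkx6-1 and Neurog3 had no count.

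Stromal genes were mostly off: 23 of 40 were off, 13 low or variable and 4 on, with a median of 0.0235 FPKM. Over all genes, 34.1% were off and 38.6% on. The summed level of the list was 1487, 1314 and 1240.3 FPKM, and nearly all of it came from Msln (695, 428 and 718), Ecm1 (567, 608 and 402) and Fn1 (216, 271 and 112). Msln encodes mesothelin, Ecm1 a matrix protein and Fn1 fibronectin. The other gene on was Tagln, an actin-binding protein, at 2.93, 2.82 and 3.44 FPKM. Fn1 was the only gene on of 9 fibroblast and stellate matrix genes with a row, of which 5 were off. Ecm1 was the only one on of 7 fibroblast and stellate receptors and factors, of which 4 were off. Of 10 endothelial genes none was on and 7 were off. Several other members of these roles were at or near 0. Col1a1 had 10, 3 and 24 counts, Col1a2 0, 0 and 2 and Col3a1 0, 0 and 7. Pdgfra had 2, 1 and 0 counts, Des 2, 0 and 0 and Acta2 0, 1 and 2. Cdh5, the endothelial cadherin, had none, with a limit of 0.0228, 0.0247 and 0.0212 FPKM, and Pecam1 had 6, 3 and 2. Wt1, a mesothelial factor, had no count beside the high Msln. Vim, vimentin, had 0.218, 0.0898 and 0.0483 FPKM. Flt1, a VEGF receptor, was the highest of the endothelial genes at 2.77, 0.667 and 1.88 FPKM, below the threshold at passage 6 only.

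Immune genes followed the same pattern, with 15 of 27 off, 7 low or variable and 5 on, beside 34.1% off and 38.6% on over all genes. Their summed level was 339.8, 446 and 277 FPKM, most of it Cd14, a co-receptor for bacterial lipopolysaccharide, at 282, 398 and 236 FPKM. Cd52, a small glycoprotein, had 27.4, 26 and 18.1 FPKM, Cd68, a lysosomal protein, had 17.8, 7.43 and 6.55, Csf1r, the receptor of the macrophage growth factor, had 9.63, 8.46 and 11.7 and Itgam, an integrin chain, had 1.12, 1.71 and 2.56. Cd14 was highest at passage 6, Cd52 and Cd68 at passage 5, and Csf1r and Itgam at passage 10, so the 5 did not share an order. Ptprc, the gene of CD45, carried by all leukocytes, had 1, 0 and 4 counts. Lyz2, a macrophage and neutrophil lysozyme, had 0, 4 and 0 counts, Cd3e of T cells 2, 1 and 1, Cd79a of B cells 0, 0 and 3 and Mpo of neutrophils none. H2-Aa had no count and Cd74, the class II invariant chain, had 0.668, 1.79 and 0.221 FPKM, highest at passage 6. The haemoglobin gene Hbb-bs had no count. Of the 49 immune genes listed, 22 were not analysed here.

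Cell cycle genes were present at low level, and no gene of the 19 was off. The list had 11 on (57.9%) and 8 low or variable, beside 38.6% of all genes and 60.9% of protein-coding genes on. Mki67, the usual mark of cycling cells, had 0.96, 2.1 and 2.45 FPKM from 318, 644 and 870 counts, just under the threshold at passage 5. Top2a had 2.45, 6.92 and 2.55 FPKM, Plk1 0.925, 4.24 and 1.88 and Ccnb1 0.39, 1.7 and 0.625, genes of mitosis that were highest at passage 6. Among genes of DNA replication, Pcna had 35.9, 30.4 and 21.5 FPKM, Mcm6 18.5, 14.2 and 9.97 and Rrm2 24.9, 12.1 and 17.8. These were highest at passage 5, and other replication genes of the list are not given here. Of the 11 on, 4 were highest at passage 5 and 4 at passage 6 on all scales. Ccnd1, cyclin D1, had 286, 174 and 183 FPKM.

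Genes of the Wnt list, which holds targets, receptors and ligands, were mostly low. Of 13, 3 were on, 6 low or variable and 4 off, beside 38.6% on and 34.1% off over all genes. Axin2, whose activity defines the reporter, had 0.307, 0.401 and 1.37 FPKM from 43, 52 and 207 counts in these reporter-negative cells, and only the passage 10 library was above 1 FPKM. Since cells were sorted by a reporter of Axin2, its level and those of other Wnt targets are given as a description of that gate. Lgr5, a Wnt-dependent R-spondin receptor, had 12, 2 and 6 counts and was off. Lgr4, another R-spondin receptor, was on at 13.5, 21 and 13.2 FPKM, as were the membrane ubiquitin ligases Rnf43 (24.4, 28 and 24.8) and Znrf3 (3.69, 4.89 and 3.46), which R-spondins act through. Nkd1, Lef1 and Rspo1 had no count.

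Immediate early genes, which respond fast to stimuli, were on in 13 of 14 cases, beside 60.9% of protein-coding genes. Of these 13, 11 were highest at passage 5, beside 24.6% of all genes on. Fos, a subunit of the AP-1 factor, had 85.8, 34.1 and 32.6 FPKM, Egr1 18.2, 1.98 and 4.08 and Jun 34.9, 15.7 and 12.4. In each the passage 5 library was well above the other 2. Junb (165, 147 and 129) and Jund (124, 121 and 151) varied less. The heat shock genes Hspa1a and Hspa1b, near-identical copies whose reads may be shared, had means of 21 and 61.6 FPKM. The part of enzymatic dissociation and sorting in these levels was not tested.

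Glucocorticoid-responsive genes were on in 10 of 11 cases, beside 60.9% of protein-coding genes, in cultures that all received dexamethasone. Nr3c1, the glucocorticoid receptor, had 9.73, 9.64 and 6.79 FPKM. Fkbp5, its feedback chaperone, had 174, 150.5 and 105 FPKM, Tsc22d3 97.5, 76.6 and 56.4 and Sgk1 99.7, 58.8 and 78.7. The metallothionein gene Mt1 had 119, 75.5 and 38 FPKM and Mt2 had 143, 60.2 and 31.7. Of the 10 on, 8 were highest at passage 5, beside 24.6% of all genes on. No library without dexamethasone was analysed here.

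The most abundant transcripts were noncoding RNAs, secreted proteins and mitochondrially encoded messages. The 50 highest genes held 20.5, 32.2 and 22.1% of summed FPKM, and the passage 6 library was highest. The mean share was 24.9% over 3 libraries and 21.3% without passage 6. The top 50 protein-coding genes held 21.1, 25.8 and 20.9% of protein-coding FPKM, again highest at passage 6. By class, assigned once the names were known, the 50 comprised 8 secreted and defence proteins, 5 membrane proteins, 5 metabolic, redox and iron proteins, 5 mitochondrially encoded genes, 5 ribosomal proteins, 3 keratins, 3 S100 and annexin proteins, 2 elongation factors, 2 others and 12 noncoding genes. The 8 secreted and defence proteins, namely Clu, Lcn2, Dmbt1, Mmp7, Ltf, Tff3, Wfdc2 and Tff2, held 5.44% of summed mean FPKM, the most of any protein-coding class. Ltf, the iron-binding antimicrobial lactotransferrin, had 1032, 2035 and 1266 FPKM, and Wfdc2, a secreted protein with whey acidic domains, had 913, 1296 and 1081.

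Of the membrane proteins, Ly6a, the surface antigen Sca-1, had 2288, 2300.3 and 2028 FPKM and Ly6e, a related protein, had 1592, 2172 and 1782. Gsta4, a glutathione transferase for lipid peroxidation products, had 1766, 1627 and 1562 FPKM, and Fth1, the heavy chain of ferritin, had 1766, 1875 and 1178. S100a6, a calcium-binding protein, had 1977, 1534 and 1469 FPKM and Anxa2, an annexin, had 1285, 1369 and 1069.8. Among these 6 genes, all but Fth1 had no library above 1.5 times another. Eef1a1, the elongation factor that carries tRNA to the ribosome, had 2888, 3596 and 2633 FPKM.

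The 34 mitochondrially encoded genes held 3.79, 5.18 and 3.38% of summed FPKM, led by mt-Co1 (5083, 7688 and 4359) and mt-Cytb (4016, 6928 and 3279), which encode subunits of complexes IV and III. Both were highest at passage 6. The 86 ribosomal protein genes held 7.32, 6.59 and 6.71% of it, and 85 of them were on. Rplp1 was the highest of them, with a mean of 1635 ± 308 FPKM (SD, n = 3).

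**Figure D5:**
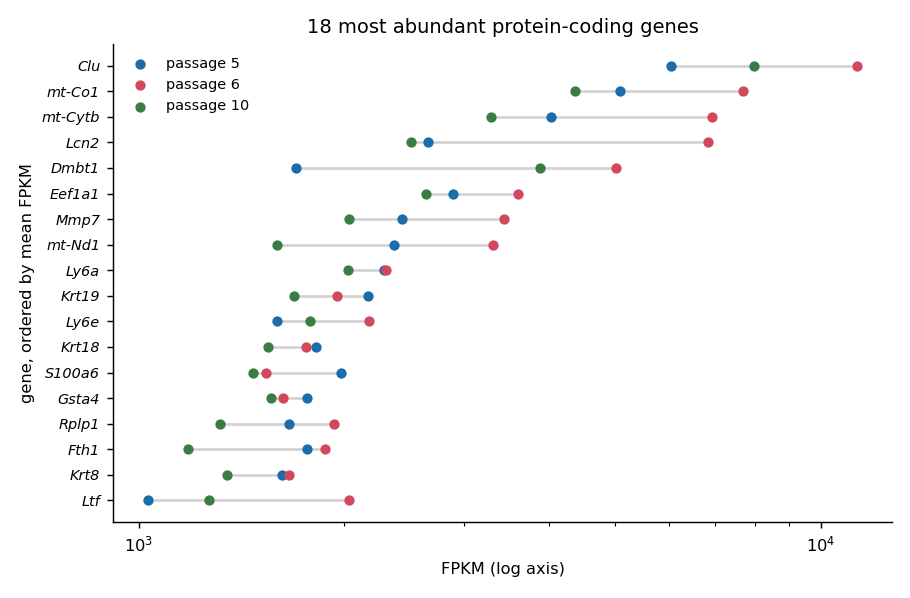
FPKM on a log axis of the 18 protein-coding genes with the highest mean, ordered from the top, 1 point per passage joined by a grey line from lowest to highest. Clu leads at 6030 to 11309 FPKM, and Ly6a and Gsta4 have short lines while Lcn2 and Dmbt1 have long ones.

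Most noncoding genes among the top 50 had short annotations. Of the 12, 8 were under 200 bases and held 3.85% of summed mean FPKM, and the 4 longer ones held 4.47%. Of the longer ones, AY036118, CT010467.1 and Gm42418 overlap in position on chromosome 17. Of the short ones, 7 lie inside a protein-coding gene: Gm26377 in Eef1a1, Gm27597 in Rpl19, Gm22133 in Ftl1, Mir5121 in Rpl13a, Mir5114 in Scd2, Gm23419 in Actg1 and, on the other strand, Gm23935 in Zc3h7a. Genes under 200 bases held 4.88, 7.05 and 5.79% of summed FPKM but 0.197, 0.348 and 0.226% of counts. Mir6236, ranked 3 by mean FPKM, had 3283, 61004 and 10243 counts, against 112310, 93493 and 94187 for Krt19, which ranked lower at 16. How reads were divided between a host gene and the short gene inside it is not given in the sources used here.

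Most genes on were steady over passages. The rule for on leaves out genes that fell below 1 FPKM in any library, so genes that crossed this level are not counted. Of the genes on, 8339 (67.1%) had a highest library within 1.5 times their lowest. Within the lists this held for 25 of 41 biliary genes on, 7 of 18 hepatocyte genes and 0 of 11 gastric genes. Among genes with a mean of at least 10 FPKM the smallest ratios belonged to Myo5b, a motor of apical membrane traffic, at 22.2, 22.2 and 22.3 FPKM, and to Wdr70, Glyr1, Snx24, Crybg1, Lasp1, Irak4, Sh3d19, Tmem222 and Vsig10. Lasp1, an actin-binding protein, was the most abundant of these 10 at 209, 209.8 and 211 FPKM. The 10 largest ratios were all noncoding: Gm27533, Gm26917, Gm28006, Firre, Mir7654, Gm23935, Mir6236, Gm15564, Gm23130 and Gm27505. They are not all separate: Gm27533, Gm28006 and Gm27505 lie inside Neat1 on its strand, and Neat1 was low at passage 6. Mir7654 (14, 3 and 97 counts) and Gm23130 (19, 3 and 62 counts) rest on few reads. Gm27533 had 176, 4.75 and 179.7 FPKM and Gm28006 245, 8.62 and 235, both lowest at passage 6, whereas Gm26917 had 16.8, 499 and 40.0, highest there.

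Among protein-coding genes, chosen as a group after the values were seen, the 10 largest ratios were those of Lars2, Reg3b, Atg9b, Sprr2a3, Tnni2, Leng8, Col27a1, Pnisr, Srsf5 and Psca. Lars2 is the gene counted above with the ribosomal-RNA-related set. Reg3b, an antibacterial lectin, had 2.17, 15.1 and 34.5 FPKM and Sprr2a3, a small proline-rich protein of stressed epithelia with close paralogs, had 3.86, 18.8 and 46.3. Both were highest at passage 10 and lowest at passage 5. Atg9b (61.2, 7.08 and 90.0), Tnni2 (22.9, 4.81 and 55.4) and Col27a1 (18.1, 3.52 and 26.6) were lowest at passage 6.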

How the data were processed

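RNA from sorted cells (100 ng input, 75-base single-end reads) was measured in 9 libraries, of which the 3 untreated ones are used. Per the submitters' processing notes, the authors used Trimmomatic 0.35, FastQC 0.11.2, STAR 2.5.1b, featureCounts and DESeq2 with the build GRCm38. Aligner settings, annotation and strand setting are not given in the sources used here. Per the file headers, each deposited file gives raw counts and FPKM per gene. The authors' FPKM were checked against the deposited counts. For 98.2% of 14099 genes with more than 20 counts in every library, the length they imply was within 2% of the longest transcript in GENCODE M21. The scale per library was in proportion to a median-of-ratios size factor. In a short gene each count is therefore worth more FPKM.

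From these values the means, SDs, thresholds (1 and 0.1 FPKM), shares and passage ratios were computed with Python 3.11.15 and pandas 2.3.3. The threshold rule was run on simulated data with levels set away from the thresholds, which does not test genes near them. Coordinates and biotypes are from GENCODE M21, and 32126 of 32137 gene identifiers matched. Named genes are those of 12 lists (333 genes, 285 with a row), the 50 with the highest mean FPKM, and the 10 largest and 10 smallest passage ratios among genes on with a mean of at least 10 FPKM. The members and lists were chosen with earlier results of these data known. A limit of 3 counts is given where no read was seen, and it covers counting error only. A few list members are not reported here by name. Alternatives were other thresholds, TPM, rescaling to total counts, raw counts and leaving out each library.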

Additional observations from a re-analysis of the deposited data

How the results depend on the processing

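No paired analysis was possible because every result describes 1 group, the untreated libraries, and comes from no test; the passages are shared with the other groups of the series, which were not compared here. A threshold of 5 FPKM left 8084 genes on, 5 gastric genes and 5 proliferation genes. Asking instead for 10 raw counts in every library gave 30 hepatocyte, 10 stromal, 19 proliferation and 8 Wnt genes on. On TPM made from FPKM, 17 proliferation, 43 biliary and 26 hepatocyte genes were on, with Cftr and Slc5a1 among the biliary ones. Genes without a count numbered 4528, against 10943 off. The 50 genes highest by FPKM held 24.9% of FPKM and 15.2% of raw counts, and the 50 highest by raw counts held 17.8% of counts. Ribosomal protein genes held 3.22% and mitochondrially encoded genes 2.2% of counts, against 6.87% and 4.11% of FPKM. Limited to genes with a mean of at least 10 FPKM, 4548 of 6115 stayed within 1.5-fold. The other planned counts stayed within 1.5 times the reported one, and the other shares within 1 SD. Without 1 library, genes on numbered 12629 to 12847, genes off 11635 to 12128 and genes within 1.5-fold 9485 to 10655, with biliary 41 to 42, hepatocyte 19 to 20 and stromal 4 to 5 genes on, while gastric stayed at 11 and immune at 5. The top 50 share ran from 21.3% without passage 6 to 27.2%. Restricting to protein-coding genes, an alternative chosen after seeing the data, gave 10688 genes on, 7495 within 1.5-fold and a top 50 share of 22.6% of protein-coding FPKM. Low genes rest on few reads, and the single animal limits what the SD covers.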

Other observations

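Gene families outside the lists, picked after the values were seen, showed which matrix and junction proteins these cells transcribed. The family counts here and below stand beside 60.9% of protein-coding genes on. Of 11 laminin chains 8 were on, among them Lama5 (129, 72.9 and 154) and Lamb3 (117, 111 and 71.2), chains of epithelial basement membrane. Lama1, Lama2 and Lamc3 were off. Of 39 collagens 6 were on, with the basement membrane chains Col4a1 (70.5, 86.1 and 38.8) and Col4a2 (63.5, 54.1 and 35.9) the highest. Of 24 integrin chains 12 were on, led by Itga3 (195, 182 and 130.1), a laminin receptor chain, and Itgb1 (160.3, 155 and 127). Cldn2, a claudin that forms cation and water pores, was the highest of 21 claudins at 551, 744 and 451 FPKM. Muc1, a membrane mucin, held 80.1% of the summed mean FPKM of 12 mucins.

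Detoxifying and mucosal defence genes were also transcribed. Of 21 glutathione transferases 14 were on and none was off, and Gsto1 had 1342, 1354 and 1000.5 FPKM. Of 79 cytochrome P450 genes 19 were on and 33 off, and the highest was Cyp2s1 at 145, 135 and 135 FPKM. Pigr, which carries IgA across epithelia, had 106, 224 and 90.8 FPKM, and Pglyrp1, a peptidoglycan-binding protein, had 643, 1140.2 and 522. The class I antigen gene H2-K1 had 208, 266 and 159 FPKM and H2-D1 had 101, 135 and 90.4. Passage 6 was highest in these 4 genes. Of 21 Hox factors none was on and 18 were off, and the 21 together summed to 0.363, 0.495 and 1.48 FPKM.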
